A study of Mus musculus with 8 samples.

Results

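Peritoneal macrophages given nicotine and then LPS were compared with cells given vehicle at both steps, within each of 2 genotypes. The comparison uses 4 of the 8 libraries of the study, chosen by their labelled treatment: a vehicle and a nicotine plus LPS library from wild-type (WT) C57BL/6 mice, and the same pair from C57BL/6 mice that lack the α7 nicotinic acetylcholine receptor (α7nAChR-/-), encoded by Chrna7. Peritoneal cells were plated, washed and rested overnight. The first step lasted 15 min, with 10 µM nicotine on the treated side, and the second 4 h, with 100 ng/ml LPS. Poly(A) RNA was sequenced and is given as FPKM, a read density per transcript length and library size. Each side therefore holds 2 libraries that differ in genotype, so they are not replicates of 1 condition, and the labels do not say how many animals or preparations stand behind a library. The p-values rest on how the genotype difference varies over the 4 treatments, taken from all 8 libraries. They measure no spread between replicates, animals or preparations.

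LPS (lipopolysaccharide), a component of the outer membrane of Gram-negative bacteria, is sensed by the receptor complex of TLR4, MD-2 and CD14. Signalling through MyD88 activates NF-kB and AP-1 and the genes of cytokines and chemokines, while signalling through TRIF induces interferon beta, which then acts back on the cells through its own receptor. Nicotine is an agonist of nicotinic acetylcholine receptors, and activation of the α7 receptor on macrophages is known for lowering TNF release, the cholinergic anti-inflammatory pathway. The integrated stress response is a separate program in which ATF4 induces genes of amino acid uptake and synthesis.

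Of 24339 listed genes, 8404 reached 5 FPKM in at least 1 of the 4 libraries and were tested, while 15935 did not. Of the tested genes, 6527 reached 5 FPKM on both sides, 689 on the nicotine plus LPS side alone and 1188 on the vehicle side alone. A gene that reached it on 1 side alone has its highest value there by the filter, so its direction is in part fixed in advance. At the edge of the filter, Mad1l1 was just inside with a highest value of 5.00046 FPKM and Cep85 just outside with 4.99314 FPKM. Chrna7 was listed at 0 in all 8 libraries, so the genotype labels could not be checked by it. Low and 0 values can be failed estimates in this table, since the housekeeping gene Gapdh ranged from 1.34 to 8.90 FPKM. The summed FPKM was 413052 and 442307 in the WT and α7nAChR-/- vehicle libraries and 657052 and 627160 in those with both agents.

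After nicotine plus LPS, 3276 genes were higher (39.0% of those tested) and 2437 lower (29.0%) than with vehicle, by limma on log2(FPKM + 1) at a Benjamini-Hochberg adjusted p under 0.05. The median change over all tested genes was 0.153 on the log2 scale. Rescaling moved this median to -0.092 with quantile scaling and to -0.043 with median centring, and the calls then split into 2679 higher and 3059 lower, or 2757 higher and 2986 lower. Where quantile scaling turned the sign of a list's median, its value is given beside the list. Without any test, 1656 genes were at least 2-fold higher in both genotypes (19.7%) and 1029 at least 2-fold lower in both (12.2%). Among the called genes, 594 were at least 4-fold higher on average and 201 at least 4-fold lower. Genes are mostly named below for the size of their change, so sides that do not overlap follow largely from that choice. The share of all tested genes whose sides do not overlap was not counted. All log2 changes are differences of log2(FPKM + 1), and adding 1 makes the change of low genes look smaller than it is.

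The chemokines Cxcl1 and Cxcl2, which attract neutrophils, had the largest rises. Cxcl1 was at 3.66 FPKM in the wild-type and 6.14 FPKM in the α7nAChR-/- vehicle library, against 5238 and 3662 FPKM with both agents (log2 change 9.57, SE 0.49, adjusted p = 6.87e-05). Cxcl2 was at 10.3 FPKM in the wild-type and 43.2 FPKM in the α7nAChR-/- vehicle library, against 12251 and 9874 FPKM with both agents (log2 change 8.95, SE 0.64, adjusted p = 0.000139). For both genes the libraries with both agents lay far above the vehicle libraries and the sides did not overlap. The other genes among the 12 largest rises were the chemokines Ccl4 and Ccl3, the cytokines Il6, Tnf and Il1a, the prostaglandin synthase gene Ptgs2, the interferon-stimulated genes Isg15, Rsad2 and Oasl1, and Gdf15, a secreted protein of the stress response. Their log2 changes ran from 6.21 (Ccl3) to 7.78 (Ccl4).

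The 12 largest falls were in genes of varied function. Tifab, which encodes a relative of the signalling adaptor TIFA, was at 20.7 FPKM in the wild-type and 22.2 FPKM in the α7nAChR-/- vehicle library, against 0.255 and 0.463 FPKM with both agents (log2 change -4.05, SE 0.31, adjusted p = 0.00017). The long noncoding RNA Neat1, the scaffold of nuclear paraspeckles, was at 388 FPKM in the wild-type and 282 FPKM in the α7nAChR-/- vehicle library, against 39.2 and 18.2 FPKM with both agents (log2 change -3.58, SE 0.33, adjusted p = 0.000273). S1pr2, a receptor for sphingosine 1-phosphate, was at 16 FPKM in the wild-type and 23.5 FPKM in the α7nAChR-/- vehicle library, against 0.955 and 1.32 FPKM with both agents (log2 change -3.26, SE 0.18, adjusted p = 8.54e-05). The sides did not overlap for any of these 3 genes. Tifab and S1pr2 reached 5 FPKM only with vehicle, so they had to be lower with both agents. Rin2, Mtus1, Abcd2, Engase, Tsku, Dhrs3, Emilin1, Dbp and Rnf144b fell by 3.30 to 3.94 on the log2 scale. All of these except Dhrs3 also reached 5 FPKM only with vehicle, so their direction was fixed by the filter too. Of these, Abcd2 encodes a peroxisomal fatty acid transporter and Dbp a transcription factor of the circadian clock.

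**Figure D1:**
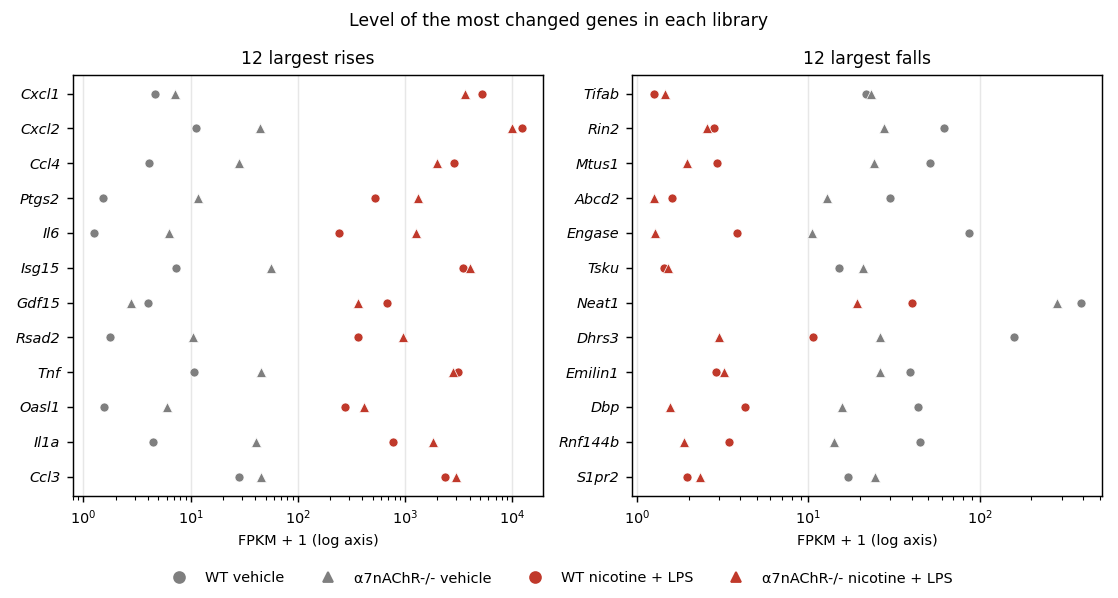
FPKM + 1 (log axis) of the genes with the 12 strongest rises and the 12 strongest falls, 1 point per library: circles are WT, triangles α7nAChR-/-, grey is vehicle and red is nicotine plus LPS. The 24 genes were picked for a large called change of the same sign in both genotypes. That the 2 red points lie on the same side of both grey points in each follows largely from this choice. Cxcl1 goes from 3.66 and 6.14 FPKM to 5238 and 3662 FPKM.

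Promoter sequences are shown for genes of 3 programs that rose, inflammatory mediators, interferon-stimulated genes and amino acid stress genes, since each program is known for a motif in its promoters. The genes shown were picked because their windows hold that motif. They are from RefSeq on GRCm38.p6, written 5′ to 3′ on the gene's strand, from 150 bases before the start of transcription (200 for Chac1) to 50 bases from it, with the motif in capitals. The NF-kB site, searched on both strands, is in capitals in the promoters of Cxcl1 (chr5:90891095-90891294, plus strand), Cxcl2 (chr5:90903749-90903948, plus strand) and Il6 (chr5:30012964-30013163, plus strand). It begins 71, 97 and 44 bases before the start, and in Cxcl1 and Cxcl2 the capitals are 2 overlapping matches.
Cxcl1: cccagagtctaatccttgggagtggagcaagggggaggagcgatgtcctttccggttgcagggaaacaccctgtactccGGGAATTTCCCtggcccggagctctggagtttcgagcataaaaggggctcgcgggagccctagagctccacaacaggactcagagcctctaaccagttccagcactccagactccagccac
Cxcl2: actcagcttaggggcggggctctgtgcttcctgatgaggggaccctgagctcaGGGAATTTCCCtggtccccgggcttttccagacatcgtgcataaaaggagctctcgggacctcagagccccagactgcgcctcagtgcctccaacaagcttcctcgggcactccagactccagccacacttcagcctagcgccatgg
Il6: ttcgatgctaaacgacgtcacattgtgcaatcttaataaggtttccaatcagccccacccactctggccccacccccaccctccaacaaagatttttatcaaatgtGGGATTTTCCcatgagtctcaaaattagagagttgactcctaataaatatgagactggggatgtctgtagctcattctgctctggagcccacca

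The interferon-stimulated response element, searched as GAAANNGAAA on both strands, is in capitals for Isg15 (chr4:156200769-156200968, minus strand), where 3 overlapping matches begin 78, 72 and 66 bases before the start, and for Rsad2 (chr12:26456403-26456602, minus strand), with 1 match 120 bases before it on the other strand.
Isg15: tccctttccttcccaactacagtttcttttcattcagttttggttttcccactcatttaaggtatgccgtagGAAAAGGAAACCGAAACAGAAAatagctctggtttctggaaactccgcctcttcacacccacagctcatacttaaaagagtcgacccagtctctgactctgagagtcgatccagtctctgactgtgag
Rsad2: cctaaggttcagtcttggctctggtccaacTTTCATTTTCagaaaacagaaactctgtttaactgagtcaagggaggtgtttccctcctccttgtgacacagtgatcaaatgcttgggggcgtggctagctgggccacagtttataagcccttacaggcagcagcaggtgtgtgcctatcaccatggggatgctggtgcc

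The core of the amino acid response element bound by ATF4, searched as TGATGNAA on both strands, is in capitals for the cystine transporter gene Slc7a11 (chr3:50443564-50443763, minus strand), with 2 matches that begin 66 and 47 bases before the start, for the asparagine synthetase gene Asns (chr6:7693160-7693359, minus strand), with a match 23 bases before it, and for the glutathione-degrading enzyme gene Chac1 (chr2:119351042-119351291, plus strand), with a match 193 bases before it. The second match in Slc7a11 and the match in Chac1 are on the other strand.
Slc7a11: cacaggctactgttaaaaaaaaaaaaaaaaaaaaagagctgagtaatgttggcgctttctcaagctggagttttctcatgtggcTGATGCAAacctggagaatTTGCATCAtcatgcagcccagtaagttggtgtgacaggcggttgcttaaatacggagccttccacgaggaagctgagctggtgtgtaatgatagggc
Asns: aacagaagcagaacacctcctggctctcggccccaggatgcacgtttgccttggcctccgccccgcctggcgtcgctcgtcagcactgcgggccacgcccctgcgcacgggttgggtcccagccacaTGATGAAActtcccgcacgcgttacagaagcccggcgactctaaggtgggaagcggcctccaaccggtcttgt
Chac1: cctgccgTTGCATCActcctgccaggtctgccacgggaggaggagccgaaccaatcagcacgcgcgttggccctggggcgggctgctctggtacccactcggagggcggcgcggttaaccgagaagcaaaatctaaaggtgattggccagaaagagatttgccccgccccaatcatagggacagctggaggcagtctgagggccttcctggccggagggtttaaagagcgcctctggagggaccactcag

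Windows of 300 bases, from 250 before the start to 50 from it, were in the RefSeq table for 6494 of the 8404 tested genes and for 420 of the 594 called genes that were at least 4-fold higher. The NF-kB site was in 10.6% of all 8340 windows of tested genes and in 14.3% of the 537 windows of those higher genes. The interferon-stimulated response element was in 3.43% and 6.89%, and the amino acid response element in 2.3% and 4.47%. In the 196 windows of 156 genes that were at least 4-fold lower, these 3 shares were 9.18%, 2.55% and 1.02%. Of the other motifs searched, AP-1 (TGANTCA) was in 5.37% of all tested windows and 10.1% of those of the higher genes, the cAMP response element (TGACGTCA) in 3.13% and 3.91%, and the E-box (CACGTG) in 10.8% and 14.2%. The antioxidant response element (TGACNNNGC) was in 14.9% and 18.6%, and the heat shock element (GAANNTTCNNGAA) in 0.564% and 0.931%. Over all 32851 windows in the RefSeq table, the first 3 motifs were in 8.46%, 3.44% and 3.97%. The other 5, in the order given, were in 7.81%, 1.79%, 7.15%, 12.4% and 0.603%. The NF-kB site was in a window of 5 of the 14 inflammatory cytokine genes with a window, 5 of 13 chemokine genes and 2 of 12 effector enzyme genes. The interferon-stimulated response element was in 14 of 27 interferon-stimulated genes, and the amino acid response element in 6 of 23 amino acid stress genes. The windows of Tnf, Il1a, Ccl3 and Ptgs2 held no NF-kB match, that of Oasl1 no interferon-stimulated response element, and those of Gdf15, Atf4 and Sesn2 no amino acid response element. A match is a description of the letters in the window and does not show binding.

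Secreted mediators of the LPS response rose. Of 21 tested inflammatory cytokine genes, 17 rose and 1 fell, with a median log2 change of 3.42 against 0.153 over all tested genes. Of these, 11 reached 5 FPKM only with both agents and so had to be higher there, and of the 10 that reached it on both sides 8 rose and 1 fell. Il6, an acute-phase cytokine, was at 0.264 FPKM in the wild-type and 5.31 FPKM in the α7nAChR-/- vehicle library, against 242 and 1274 FPKM with both agents (log2 change 7.62, SE 0.55, adjusted p = 0.000143). Tnf was at 9.88 FPKM in the wild-type and 44.3 FPKM in the α7nAChR-/- vehicle library, against 3118 and 2821 FPKM with both agents (log2 change 7.06, SE 0.57, adjusted p = 0.000185), and the vehicle and treated libraries did not overlap for either gene. Il10, the cytokine that restrains macrophage activation, went from 0.352 and 0.788 FPKM to 48.7 and 104 FPKM (log2 change 5.54). Il1rn, which encodes the antagonist of the IL-1 receptor, went from 18.6 and 81.3 FPKM to 439 and 412 FPKM (log2 change 3.41). All of these levels were higher with both agents in each genotype. Il1b rose too (log2 change 3.79, SE 1.02, adjusted p = 0.0159), but its adjusted p was 0.111 without the WT vehicle library and 0.117 without the α7nAChR-/- library with both agents. Il18 fell (log2 change -0.68, SE 0.17, adjusted p = 0.0105), a call lost without either WT library, with adjusted p of 0.0882 and 0.0895.

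The interferon beta gene Ifnb1, listed at 0 in both vehicle libraries, was at 20.6 FPKM in WT and 134 FPKM in α7nAChR-/- cells with both agents (adjusted p = 0.0037). Its level was above vehicle in both genotypes and higher in the α7nAChR-/- library. Ifnb1 reached 5 FPKM only with both agents, so it had to be higher there. Il27, which encodes a subunit of IL-27, and Ebi3, which encodes its partner, did not pass the test, with log2 changes of 0.69 and 0.04.

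Chemokine genes split into a group that rose strongly and a group that did not pass the test. Of 19 tested, 9 rose, 1 fell and 9 were not called, with a median of 1.40. Beside Cxcl1 and Cxcl2, the rises included Ccl3, Ccl4, Ccl5 and Ccl2, ligands of receptors on monocytes and T cells, and the interferon-induced Cxcl10, which went from 4.17 and 34.4 FPKM to 509 and 861 FPKM (log2 change 5.62). Cxcl3, a relative of Cxcl1 and Cxcl2, was at 5.74 FPKM in the wild-type and 87.7 FPKM in the α7nAChR-/- vehicle library, against 19.2 and 205 FPKM with both agents (log2 change 1.40, adjusted p = 0.305), so that it was higher with both agents within each genotype while the genotypes lay far apart. From the 4 libraries alone with genotype as a term Cxcl3 was called (adjusted p = 0.00302). The B cell attractant Cxcl13 had a log2 change of -0.77 and did not pass, but was called lower under quantile scaling (-1.61, adjusted p = 0.00561), with median centring (-0.966, adjusted p = 0.0312) and without the WT vehicle library (-1.27, adjusted p = 0.0133). Cxcl14 fell (log2 change -0.80, SE 0.27, adjusted p = 0.0348), with adjusted p of 0.233 and 0.229 without the WT vehicle library or the WT library with both agents. Under quantile scaling 8 chemokine genes rose and 5 fell.

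The interferon program rose across most of its members. Of 36 tested interferon-stimulated genes 31 rose and 0 fell, with a median of 2.14, and of 15 interferon-inducible GTPase genes 10 rose and 0 fell, with a median of 1.36. Of those that reached 5 FPKM on both sides, 28 of 33 and 10 of 14 rose. Isg15, a ubiquitin-like protein joined to other proteins after infection, was at 6.25 FPKM in the wild-type and 54.8 FPKM in the α7nAChR-/- vehicle library, against 3488 and 4043 FPKM with both agents (log2 change 7.54, SE 0.69, adjusted p = 0.000269). Rsad2, which encodes the antiviral enzyme viperin, was at 0.753 FPKM in the wild-type and 9.5 FPKM in the α7nAChR-/- vehicle library, against 364 and 948 FPKM with both agents (log2 change 7.10, SE 0.34, adjusted p = 6.58e-05). In both genes the α7nAChR-/- vehicle library was above the WT one, and the treated libraries lay above both. The RNA sensor gene Ifih1 went from 5.5 and 9.65 FPKM to 233 and 136 FPKM and Irgm1, a GTPase of defence against intracellular microbes, from 22.4 and 66.4 FPKM to 200.1 and 629 FPKM (log2 changes 4.43 and 3.17). Samhd1 (log2 change -0.67) and Iigp1 (-0.51) did not pass the test. Under quantile scaling 29 of the 36 interferon-stimulated genes rose and 1 fell.

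Pattern recognition genes, those of LPS sensing among them, moved in both directions. Of 27 tested 13 rose and 3 fell, where 39.0% of all tested genes were higher and 29.0% lower. Of the 23 that reached 5 FPKM on both sides 12 rose and 3 fell. Tlr4, the LPS receptor itself, went from 15.8 and 28.7 FPKM to 6.54 and 10.5 FPKM (log2 change -1.26, SE 0.25, adjusted p = 0.00455), while its partners Ly96, which encodes MD-2, and Cd14 had log2 changes of 2.11 and 2.08, both rises. Tlr8, an endosomal receptor of RNA, had the largest fall of this list, from 73.6 and 47.4 FPKM to 8.38 and 6.11 FPKM (log2 change -2.88, SE 0.20, adjusted p = 0.000131), and Nlrp3, the sensor of the inflammasome, the largest rise, from 17 and 25.2 FPKM to 350.0 and 262 FPKM (log2 change 3.80, SE 0.24, adjusted p = 0.000119). Sides did not overlap for Tlr4, Tlr8 or Nlrp3. The split of this list under quantile scaling was 9 rises and 5 falls.

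Genes of NF-kB subunits and of its negative feedback rose in 19 of 24 and fell in 0, with a median of 2.09. Nfkbiz, a nuclear IkB protein, had the largest change, from 6.75 and 7.66 FPKM to 249 and 237 FPKM (log2 change 4.89, SE 0.13, adjusted p = 3.55e-05). The inhibitors Nfkbia and Tnfaip3, which encode IkBα and A20, had log2 changes of 2.65 and 3.45. Relb (0.29), Nfkbie (0.39), Birc3 (0.10), Tnfaip2 (0.72) and Irak3 (-0.40) did not pass. Of 23 tested immediate early genes 17 rose, led by Maff (log2 change 5.95), Nr4a3 (5.17) and Fosl1 (4.65), and 3 fell, Egr2, Klf2 and Btg2, while of the 14 that reached 5 FPKM on both sides 8 rose. Without single libraries the adjusted p was up to 0.087 for Egr2 and 0.0895 for Klf2.

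Effector enzymes gave 12 rises and 1 fall among 18 tested, with a median of 1.44, and 9 rises and 2 falls under quantile scaling. Of the 16 that reached 5 FPKM on both sides 10 rose and 1 fell. Ptgs2, the inducible cyclooxygenase, was at 0.508 FPKM in the wild-type and 10.7 FPKM in the α7nAChR-/- vehicle library, against 522 and 1312 FPKM with both agents (log2 change 7.63, SE 0.60, adjusted p = 0.000175). Hdc, which makes histamine, went from 2.64 and 1.66 FPKM to 55.5 and 57.8 FPKM (log2 change 4.21, SE 0.18, adjusted p = 6.15e-05). The single fall was Ncf1, which encodes the p47phox subunit of the phagocyte oxidase, from 190.3 and 240.2 FPKM to 31.5 and 53.2 FPKM (log2 change -2.35, SE 0.21, adjusted p = 0.000255). Both treated libraries lay below both vehicle libraries for Ncf1 and above them for Ptgs2 and Hdc. Hdc reached 5 FPKM only with both agents, so it had to be higher there. Nos2, the inducible nitric oxide synthase, stayed under the filter, at 0 and 2.11 FPKM with vehicle and 1.56 and 3.61 FPKM with both agents, while LPS alone gave 164 and 1189 FPKM.

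Amino acid stress genes rose in nearly every tested member. Of 25 tested targets and partners of ATF4, 23 rose and 0 fell, with a median of 3.54, and 22 rose under quantile scaling. Of the 16 that reached 5 FPKM on both sides 15 rose. Atf4 itself was at 103 FPKM in the wild-type and 88.6 FPKM in the α7nAChR-/- vehicle library, against 1179 and 1072 FPKM with both agents (log2 change 3.54, SE 0.16, adjusted p = 6.15e-05). Gdf15 was at 3 FPKM in the wild-type and 1.75 FPKM in the α7nAChR-/- vehicle library, against 679.9 and 367 FPKM with both agents (log2 change 7.24, SE 0.30, adjusted p = 5.75e-05). Asns, whose promoter is printed above, was at 2.47 FPKM in the wild-type and 3.74 FPKM in the α7nAChR-/- vehicle library, against 117 and 112 FPKM with both agents (log2 change 4.83, SE 0.45, adjusted p = 0.000285). In all 3 genes both treated libraries stood well above both vehicle libraries. Gdf15 and Asns reached 5 FPKM only with both agents, so they had to be higher there. Ppp1r15a, which restarts translation by returning eIF2α to its unphosphorylated form, had a log2 change of 5.02, and Chac1 and Trib3 of 5.11 and 4.90. Psph (0.78) and Nupr1 (0.81) did not pass. Among 18 genes of cytosolic tRNA synthetases, 11 rose, led by Aars (log2 change 2.85) and Nars (2.63), and 1 fell, Dars (-1.18).

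Other stress programs rose as well. All 15 tested heat shock genes rose, with a median of 2.05, also under quantile scaling, and 12 of them reached 5 FPKM on both sides. Hspa1b, an inducible HSP70 gene with a near-identical neighbour in Hspa1a, so that reads may be split between them, went from 0.74 and 2.69 FPKM to 93 and 46.4 FPKM (log2 change 4.72). Among 19 antioxidant genes, many of them targets of NRF2, 12 rose and 2 fell, with a median of 1.32. Hmox1, which breaks down haem, was at 313 FPKM in the wild-type and 501 FPKM in the α7nAChR-/- vehicle library, against 6179.7 and 2916 FPKM with both agents (log2 change 3.42, SE 0.44, adjusted p = 0.000818), and Txnrd1, a thioredoxin reductase, had a log2 change of 3.42. The largest fall of this list was in G6pdx (log2 change -1.52), which feeds the pentose phosphate pathway. Of 19 chaperone genes of the endoplasmic reticulum 12 rose and 2 fell with a median of 0.474, which became -0.225 under quantile scaling with 7 rises and 5 falls. Hspa5, the chaperone BiP, led this list with a log2 change of 2.88.

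**Figure D2:**
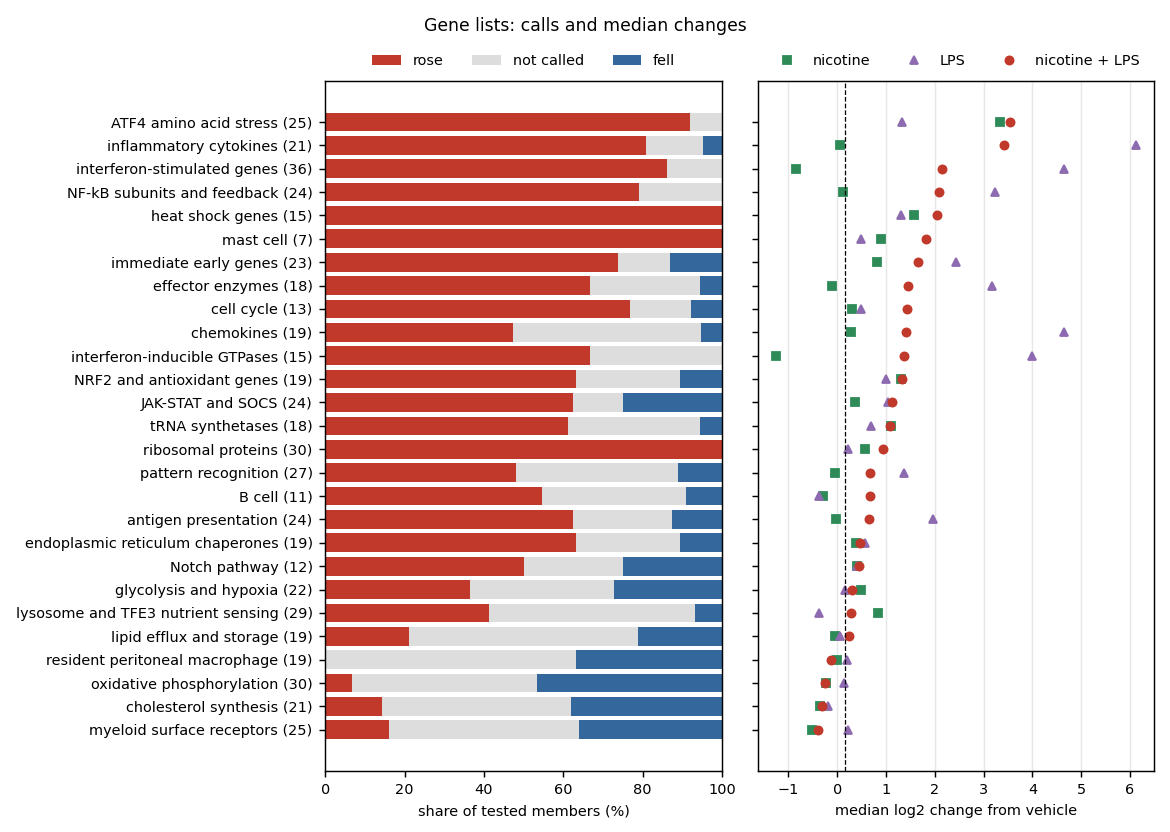
Left, share of the tested members of each gene list (number tested in brackets) that rose, fell or were not called after nicotine plus LPS. Right, median log2 change from vehicle of the same members with nicotine alone (squares), LPS alone (triangles) and both (circles), with the median of all tested genes, 0.153, as a dashed line. The 3 comparisons share the vehicle libraries; amino acid stress genes have medians of 3.33, 1.32 and 3.54, and inflammatory cytokines of 0.0547, 6.13 and 3.42.

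Genes of oxidative phosphorylation and of cholesterol synthesis fell more often than they rose. Of 30 nuclear genes of oxidative phosphorylation 2 rose and 14 fell, with a median of -0.247, and under quantile scaling 0 rose and 27 fell. Sdhb, a subunit of succinate dehydrogenase, went from 85.8 and 113 FPKM to 32.2 and 46.9 FPKM (log2 change -1.32, SE 0.14, adjusted p = 0.00041), and the sides did not overlap. The 2 rises, Atp5b (0.88) and Atp5a1 (0.44), were lost under quantile scaling, where Atp5a1 was called lower with a log2 change of -0.359. Of 21 cholesterol synthesis genes 3 rose and 8 fell, where 39.0% of all tested genes were higher and 29.0% lower. Under quantile scaling 11 of the 21 fell. Insig1, which restrains the pathway, went from 44.4 and 28.7 FPKM to 158 and 169.8 FPKM (log2 change 2.17), while Mvk had a log2 change of -1.41 and Nsdhl of -1.27. Mvk and Nsdhl reached 5 FPKM only with vehicle, so they had to be lower with both agents.

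Glycolysis and hypoxia genes gave 8 rises and 6 falls of 22 tested, shares near the 39.0% and 29.0% over all tested genes, with Vegfa (log2 change 2.81) and the hexokinase Hk2 (2.69) highest and the pyruvate dehydrogenase kinase Pdk1 (-1.61) lowest. Pdk1 reached 5 FPKM only with vehicle, so it had to be lower with both agents. The list's median of 0.308 became -0.324 under quantile scaling, with 5 rises and 8 falls. Of 19 genes of lipid efflux and storage 4 rose and 4 fell, and the median of 0.234 likewise became -0.448. Lpcat3, an enzyme that remodels phospholipids, fell from 18.5 and 23.4 FPKM to 5.6 and 6.03 FPKM (log2 change -1.68, SE 0.13, adjusted p = 0.000165).

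Lysosomal and nutrient-sensing genes gave 12 rises and 2 falls of 29 tested, a share of rises near the 39.0% over all tested genes, and 8 rises and 15 falls under quantile scaling, where the median went from 0.283 to -0.70. The rises included genes that keep their direction under that scaling, among them the autophagy receptor Sqstm1, at 244 FPKM in the wild-type and 299 FPKM in the α7nAChR-/- vehicle library, against 3136 and 2019 FPKM with both agents (log2 change 3.22, SE 0.25, adjusted p = 0.000175). Fnip2, a partner of folliculin, had a log2 change of 3.20, and the V-ATPase subunit gene Atp6v1h of 2.83. Gla, which encodes lysosomal α-galactosidase, went from 35.1 and 28.9 FPKM to 239.8 and 194 FPKM (log2 change 2.72). All 30 ribosomal protein genes rose, with a median of 0.929, and 29 were called higher with median centring, but under quantile scaling 0 were called and the median was 0.0255.

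Of 13 tested cell cycle genes 10 rose and 1 fell, or 6 and 1 of the 9 that reached 5 FPKM on both sides, the largest rise being in Cdkn1a, which encodes the inhibitor p21, from 41.1 and 47.3 FPKM to 419 and 412 FPKM (log2 change 3.21, SE 0.26, adjusted p = 0.000183). Of 24 antigen presentation genes 15 rose and 3 fell. The costimulatory gene Cd40 and the checkpoint ligand gene Cd274 had log2 changes of 3.27 and 3.64, and the immunoproteasome genes Psmb9 and Psmb10 of -1.32 and -1.13. Without single libraries the adjusted p was up to 0.139 for Psmb9 and 0.0983 for Psmb10. Their list median of 0.654 became -0.197 under quantile scaling, with 6 rises and 7 falls. Among 25 tested myeloid surface receptors 4 rose and 9 fell, where 39.0% of all tested genes were higher and 29.0% lower. The median of these receptors was -0.385, and under quantile scaling 2 rose and 14 fell, with a median of -0.831. The chemokine receptors Ccr2 and Cx3cr1 fell, the first from 17.8 and 11.9 FPKM to 1.42 and 1.51 FPKM (log2 change -2.66, SE 0.34, adjusted p = 0.000851), and Hcar2, a receptor for hydroxybutyrate and niacin, rose from 14.5 and 30.8 FPKM to 112 and 435 FPKM (log2 change 3.32, SE 0.51, adjusted p = 0.00162). The treated libraries lay below the vehicle libraries for Ccr2 and above them for Hcar2. Ccr2 and Cx3cr1 reached 5 FPKM only with vehicle, so they had to be lower with both agents.

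The kinase Jak2 and the transcription factor Stat3, placed downstream of the α7 receptor in earlier work, rose with log2 changes of 1.26 and 0.99, calls that were lost under quantile scaling (adjusted p of 0.121 and 0.106) and without single libraries (adjusted p of up to 0.101 for Jak2 and 0.0868 for Stat3). Of 24 JAK-STAT genes 15 rose and 6 fell, with Pim1 (3.07) and Socs1 (2.62) highest and Tyk2 (-1.76) lowest. Of 12 Notch pathway genes 6 rose and 3 fell. The shares of falls in both lists were near the 29.0% over all tested genes, of which 39.0% were higher. Hes1, a Notch target, was at 1.99 FPKM in the wild-type and 0.321 FPKM in the α7nAChR-/- vehicle library, against 11.8 and 5.87 FPKM with both agents (log2 change 2.24, SE 0.25, adjusted p = 0.000507), so that the treated libraries were above the vehicle ones in both genotypes, and Hes6 had a log2 change of -1.56. The Notch list's median of 0.454 became -0.164 under quantile scaling. Hes1 reached 5 FPKM only with both agents and Hes6 only with vehicle, so their directions were in part set by the filter. Of the 10 Notch genes that reached it on both sides 5 rose and 2 fell.

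Markers of cell types were measured beside these changes. Of 20 markers of resident peritoneal macrophages 19 were tested, 0 rose and 7 fell (13 under quantile scaling). Over all tested genes 39.0% were higher and 29.0% lower. The summed level of these macrophage markers was 42900 and 63500 FPKM with vehicle against 36600 and 46400 FPKM with both agents. Most of it was Lyz2, at 32448 and 28713 FPKM with vehicle and 25861 and 17576 FPKM with both agents, and Saa3. Saa3 was at 7608 and 32418 FPKM with vehicle, 46089 and 66561 FPKM with LPS alone and 7702 and 26813 FPKM with both agents. The sum therefore says little about the other markers. Gata6, the transcription factor of resident peritoneal macrophages, went from 15.7 and 3.49 FPKM to 2.45 and 0.814 FPKM (log2 change -1.80, SE 0.28, adjusted p = 0.00176). It reached 5 FPKM only with vehicle. Adgre1, which encodes F4/80, did not pass, with a log2 change of 0.10, but was called lower under quantile scaling (-0.651, adjusted p = 0.00998). All 7 tested of 10 mast cell markers rose, with a median of 1.81, 2 of them having reached 5 FPKM only with both agents, and the list's sum went from 221 and 166 FPKM to 769 and 583 FPKM, while the calls of Kit and Tpsab1 were lost without single libraries (adjusted p of up to 0.156 and 0.151). Cpa3, a mast cell protease, went from 32.6 and 21.8 FPKM to 134 and 82.8 FPKM (log2 change 1.94, SE 0.13, adjusted p = 0.000126). Of 11 tested B cell markers of 14, 6 rose and 1 fell, and their sum went from 359 and 340 FPKM to 440 and 499 FPKM, with 4 rises and 2 falls under quantile scaling. These markers moved with the treatment, and their part in the other changes was not tested. In bulk RNA, a change in the number of cells of a type and in RNA per cell cannot be told apart.

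Of the other cell types, neutrophil markers had a sum near that of mast cell markers with vehicle, and the rest had lower sums with vehicle. T and NK cell markers summed to 23.8 and 28.3 FPKM with vehicle and 44.0 and 55.8 FPKM with both agents, and 2 of 15 markers were tested. Neutrophil markers had a sum of 167 and 194 FPKM with vehicle and 89.3 and 115 FPKM with both agents, with S100a9 and Retnlg listed at 0 in both WT libraries and 1 of 3 tested markers lower. Dendritic cell markers summed to 31.9 and 21.5 FPKM with vehicle and 95.0 and 126 FPKM with both agents, with 3 of 10 tested, of which Xcr1 reached the filter only with both agents. Most of the rise of this sum was in Xcr1 and Ccr7. Ccr7 was at 6.98 and 13.0 FPKM with vehicle, 34.9 and 62.0 FPKM with LPS alone and 45.0 and 102 FPKM with both. Cd209a, the third tested marker, was at 19.8 and 0.156 FPKM with vehicle and 18.9 and 0.131 FPKM with both. No eosinophil marker reached the filter, with Ear6 and Prg2 at or near 0. Mesothelial and fibroblast markers summed to 4.31 and 4.65 FPKM with vehicle and to 25.5 and 10.9 FPKM with both agents. Its 2 tested members reached the filter only with both agents, so they had to be higher there.

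The single treatments show where each program also moved without the other agent. The changes with nicotine alone and LPS alone are taken from the same fit and use the same vehicle libraries, so the 3 comparisons are not independent. Amino acid stress genes had a median log2 change of 3.33 with nicotine alone, 1.32 with LPS alone and 3.54 with both. Inflammatory cytokine genes had medians of 0.0547, 6.13 and 3.42 in the same order, and interferon-stimulated genes of -0.84, 4.64 and 2.14. Heat shock genes had medians of 1.58, 1.30 and 2.05. Over all tested genes the medians were 0.114, 0.165 and 0.153.

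Single genes show the range of these patterns. Gdf15 was at 3, 570.2, 23.5 and 679.9 FPKM in WT and 1.75, 163, 7.95 and 367 FPKM in α7nAChR-/- cells with vehicle, nicotine, LPS and both, so the libraries that had nicotine stood together at the top. Il6 was at 0.264, 4.16, 7857 and 242 FPKM in WT and 5.31, 6.33, 10058 and 1274 FPKM in α7nAChR-/- cells with vehicle, nicotine, LPS and both. Its level with both agents lay above vehicle and nicotine alone and far below LPS alone in both genotypes. Cxcl1 was at 3.66, 63.5, 8755 and 5238 FPKM in WT and 6.14, 38.9, 2583 and 3662 FPKM in α7nAChR-/- cells with vehicle, nicotine, LPS and both, and its level with both agents was below that with LPS alone in WT and above it in α7nAChR-/- cells.

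**Figure D3:**
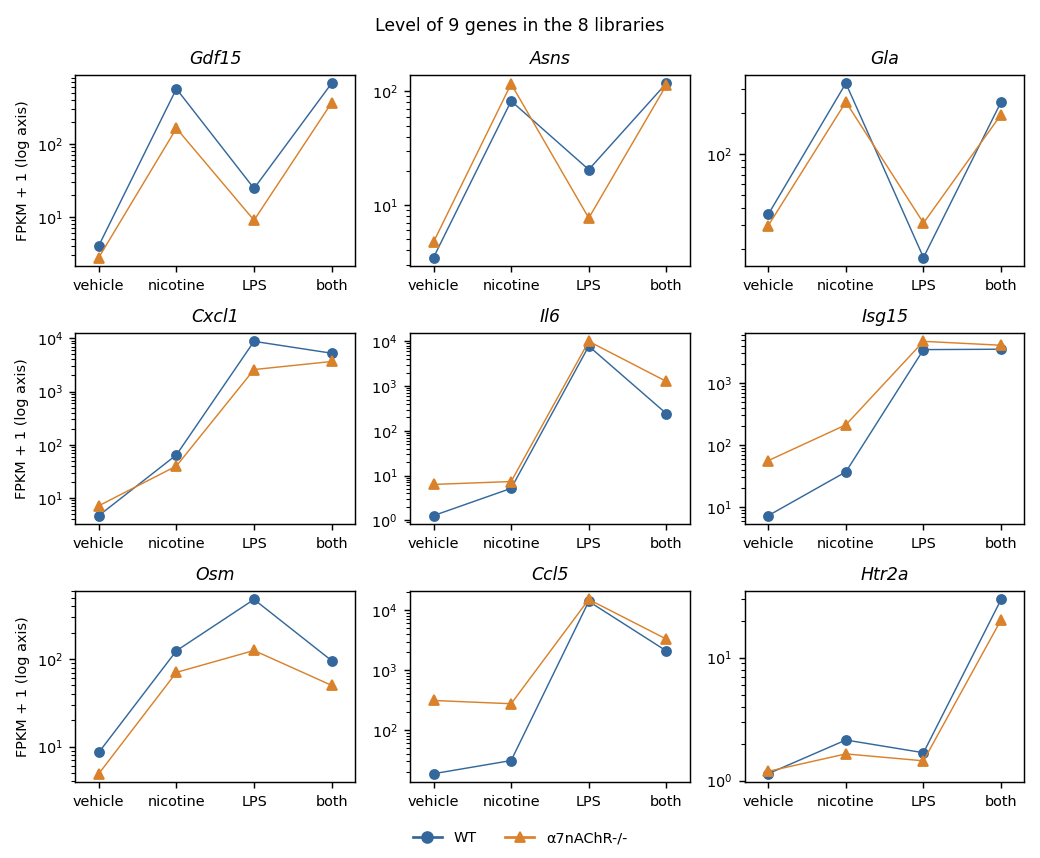
FPKM + 1 (log axis) of 9 genes in the 8 libraries, by treatment; circles are WT and triangles α7nAChR-/- cells, 1 library per point. Gdf15, Asns and Gla are high in the libraries with nicotine, Cxcl1, Il6, Isg15 and Ccl5 in those with LPS alone and above vehicle with both, Osm is at 94.8 and 49 FPKM with both agents, and Htr2a is high with both (28.7 and 19.3 FPKM) and under 2 FPKM elsewhere.

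The combined change was tested against the sum of the 2 single changes on the log2 scale. It lay above the sum for 1008 genes (12%) and below it for 1597 (19.0%), by limma at an adjusted p under 0.05, and the median departure over all tested genes was -0.17. These counts rest on few residual degrees of freedom: without 1 library they were 407 and 598 (WT vehicle), 356 and 478 (WT with both agents), 647 and 1002 (α7nAChR-/- vehicle), and 468 and 664 (α7nAChR-/- with both agents). Under quantile scaling the split turned to 1286 above and 1100 below. Of the genes below the sum, 1230 were still higher than vehicle with both agents, and 1181 had positive changes with each agent alone. Of those above it, 745 were lower than vehicle, and 738 had negative changes with each agent alone. FPKM has a floor, so 2 large falls cannot add in full, and a departure above the sum is then partly fixed in advance.

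Large departures below the sum were found in genes that LPS alone raised. Il27 departed by -6.44 (SE 0.72, adjusted p = 0.0048), Il1a by -6.18, the cholesterol 25-hydroxylase gene Ch25h by -6.08, the cytokine gene Osm by -5.67 and the interferon-induced Slfn4 by -5.12. Osm was at 7.58, 123, 478 and 94.8 FPKM in WT and 3.9, 69.4, 124 and 49 FPKM in α7nAChR-/- cells with vehicle, nicotine, LPS and both, so that it was higher with each agent alone than with vehicle. Of 21 tested inflammatory cytokine genes 17 departed below the sum and 0 above it, and of 25 amino acid stress genes 9 departed below and 2 above.

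Most of the largest departures above the sum were in genes that each agent alone lowered. Such departures are partly fixed in advance, since large falls cannot add beyond the floor of the scale. Dbp, with single changes of -2.90 and -4.33 from 42.8 and 14.7 FPKM with vehicle, is an example. Sesn1, a p53 and FOXO target that restrains mTORC1, was at 57.5, 10.5, 1.31 and 8.51 FPKM in WT and 37.7, 8.1, 1.24 and 7.41 FPKM in α7nAChR-/- cells with vehicle, nicotine, LPS and both. Its level with both agents lay below vehicle and above LPS alone (departure 4.20, SE 0.24, adjusted p = 0.00228). Ypel3, Dbp and Susd3 also lay below vehicle and above LPS alone in both genotypes, with departures of 4.06, 3.88 and 3.85. Of the 4 libraries compared, Dbp and Susd3 reached 5 FPKM only in those with vehicle, so they had to lie below vehicle. Engase departed by 4.29, a call lost without either library with both agents (adjusted p of 0.0579 and 0.0542). Eif3j1, a translation initiation factor gene, was listed at about 0.11 FPKM in 6 libraries and at 22.3 and 22.7 FPKM with both agents. It has a near-identical copy, Eif3j2, at 19.1 and 17.9 FPKM with vehicle and 69.7 and 47.3 FPKM with both, so the value of Eif3j1 is uncertain.

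A few genes were higher with both agents than with either alone. They were named after their values were seen. Htr2a, the serotonin 5-HT2A receptor gene, was at 0.139, 1.14, 0.688 and 28.7 FPKM in WT and 0.191, 0.651, 0.45 and 19.3 FPKM in α7nAChR-/- cells with vehicle, nicotine, LPS and both (departure 3.28, adjusted p = 0.0044). Xcr1, a chemokine receptor gene and marker of cross-presenting dendritic cells, was at 0.0725, 2.48, 1.14 and 27.3 FPKM in WT and 0.14, 1.97, 1.31 and 18.4 FPKM in α7nAChR-/- cells with vehicle, nicotine, LPS and both (departure 1.86, adjusted p = 0.0101). In both genes the libraries with both agents were above the other 6. Htr2a and Xcr1 passed the filter of 5 FPKM only through those libraries, so they had to be higher there than with vehicle. The dendritic cell marker Zbtb46 was at 1.06 and 1.27 FPKM with vehicle and 1.68 and 2.39 FPKM with both.

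**Figure D4:**
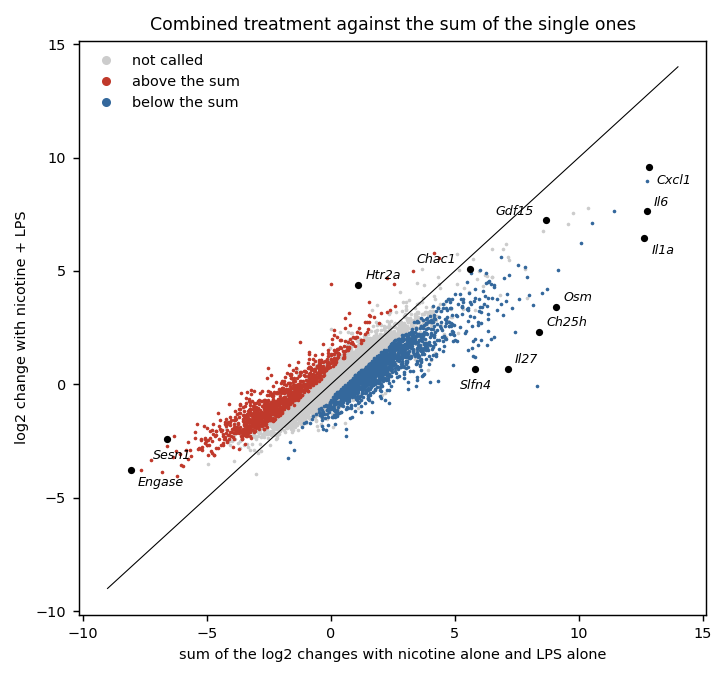
Each point is a tested gene: the sum of its mean log2 changes with nicotine alone and LPS alone (horizontal) against its mean log2 change with both agents (vertical), with the line of equality; red and blue mark the 1008 genes above and the 1597 below the sum at an adjusted p under 0.05. Both axes use the same vehicle libraries. Il27 has a departure of -6.44 from the line, and Htr2a of 3.28.

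The change had the same sign in both genotypes for 7648 of the 8404 genes. The median absolute difference between the WT and α7nAChR-/- changes was 0.23 on the log2 scale. The changes differed at least 2-fold for 398 genes, with the value larger in WT for 212 and in α7nAChR-/- cells for 186, and 2 genes moved at least 2-fold in opposite directions. These were Mefv, which encodes the inflammasome protein pyrin, and Cdc42ep2, an effector of the GTPase Cdc42, with log2 changes of 1.31 and 1.15 in WT and -1.46 and -1.46 in α7nAChR-/- cells, named after their values were seen. With 1 library per group this difference has no replicate check and was not tested. Of the 4 libraries, Mefv and Cdc42ep2 reached 5 FPKM only in the α7nAChR-/- vehicle library. They therefore had to be lower with both agents in that genotype. The 6 genes that differed most, among those with 20 FPKM in at least 1 library, all had the larger rise in WT. Irg1, now named Acod1, which makes itaconate, was at 17.4 FPKM in the wild-type and 232 FPKM in the α7nAChR-/- vehicle library, against 726 and 539 FPKM with both agents, with log2 changes of 5.30 in WT and 1.21 in α7nAChR-/- cells. The mean change of Irg1 was called (adjusted p = 0.0205) and lost without the WT library with both agents (adjusted p = 0.145). Ccl5 was at 17.7 FPKM in the wild-type and 311 FPKM in the α7nAChR-/- vehicle library, against 2087 and 3286 FPKM with both agents, with log2 changes of 6.80 and 3.40. In both genes the vehicle libraries were further apart than the libraries with both agents.

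Clec4e, which encodes the glycolipid receptor Mincle, had log2 changes of 3.43 in WT and 0.27 in α7nAChR-/- cells, from 121 and 1009 FPKM to 1306 and 1216 FPKM, and its mean change did not pass the test (adjusted p = 0.0621). Ccl4, Slc7a11 and Isg15 had log2 changes of 9.44, 6.42 and 8.91 in WT and 6.13, 3.64 and 6.18 in α7nAChR-/- cells. For all 6 genes the α7nAChR-/- vehicle library was above the WT vehicle library. Whole lists differed too: summed vehicle levels in WT and α7nAChR-/- cells were 76.9 and 324 FPKM for inflammatory cytokines and 885 and 2110 FPKM for chemokines. For interferon-stimulated genes they were 569 and 1860 FPKM. Further lists were also higher in α7nAChR-/- cells. Among them were interferon-inducible GTPases (199 and 796 FPKM), effector enzymes (1040 and 2350 FPKM) and pattern recognition genes (2930 and 5320 FPKM). Some lists were near or lower, with 631 and 706 FPKM for amino acid stress genes and 13800 and 8830 FPKM for lysosomal and nutrient-sensing genes. The cause was not tested. Ifnb1 had the larger change in α7nAChR-/- cells, 7.07 against 4.43, on values listed at 0 with vehicle.

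**Figure D5:**
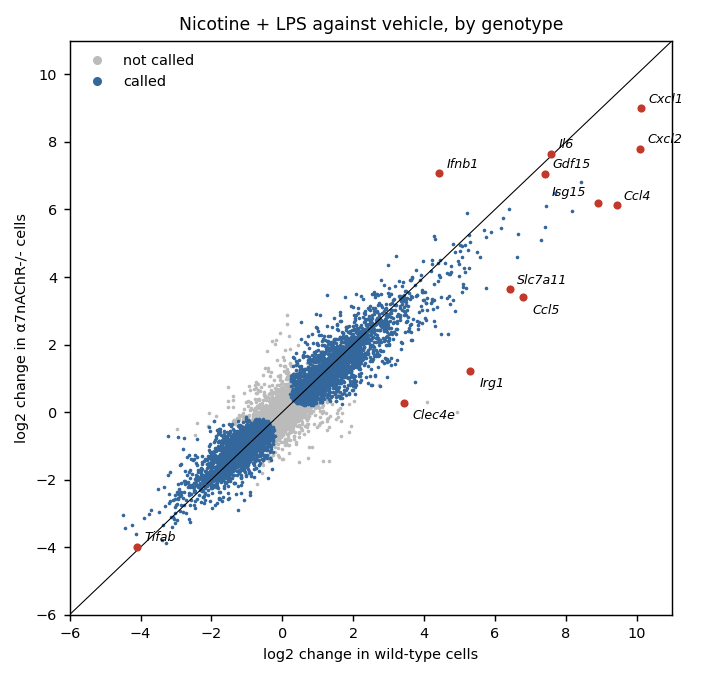
Log2 change with nicotine plus LPS in WT cells (horizontal) and in α7nAChR-/- cells (vertical) for the 8404 tested genes, with the line of equality; blue marks genes called by limma on the mean change and red points are named. Ccl4, Ccl5, Irg1, Clec4e, Slc7a11 and Isg15 lie below the line and Ifnb1 above it.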

How the data were processed

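RNA sequencing of 8 groups of plated mouse peritoneal macrophages, 1 library each, was used. Per the labels' protocols, poly(A) RNA was selected and prepared with an Illumina TruSeq v2 kit. Samples were grouped by title. The authors deposited 1 FPKM value per gene and library, and CASAVA 1.8, HISAT2, Cufflinks, Cuffdiff and the build mm10 stand in the submitters' processing notes, whose roles are not stated. How the authors annotated, filtered or scaled the values is not given in the sources used here. The table has 24341 lines, and 2 symbols occur on more than 1 line, of which that with the higher mean was used. The depth is unknown: at most 16.1% of low values shared 1 step, so whole reads could not be recovered, and no interval from counts is given. If values were scaled by library total, a change in the most abundant genes moves the values of all others.

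FPKM values are not counts, so log2(FPKM + 1) was fitted with limma 3.58.1 in R 4.3.3 for all 8 libraries, with genotype and the 4 treatments as terms, 3 residual degrees of freedom, moderation with a trend on expression, and Benjamini-Hochberg adjustment over all 8404 genes at 0.05. The spread is the part of the genotype difference that changes with treatment, so a real difference between genotypes in response enlarges it. The same fit gave the departure of the combined change from the sum of the single ones. On simulated data of 8404 genes for nicotine plus LPS against vehicle, the fit recovered 79% of 2-fold and 99% of 4-fold changes, and 7.8% of its calls were false. The simulation was a single draw in which few genes changed, and only in the nicotine plus LPS libraries. It had no genotype effect and noise independent between genes, so these rates are not the power or error of the real comparison. Tables and figures were made with Python 3.11.15, pandas 2.3.3, NumPy 2.4.6 and Matplotlib 3.10.9. Alternatives were the pseudocount, the filter on low values, quantile scaling, median centring, other fits and leaving out each library.

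Genes were named as the 12 largest rises and falls, the 6 largest departures on each side, the 6 largest differences between genotypes, and the 2 highest and lowest members of each of 33 gene lists, leaving out predicted genes. Other list members were named as examples after their values were seen. The members of the comparison and the lists were chosen with earlier results of these data known. Some genes that the naming rule chose are not reported here.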

Additional observations from a re-analysis of the deposited data

Results flagged for a closer look

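Mefv and Cdc42ep2 moved in opposite directions in the genotypes, higher with both agents in WT cells and lower in α7nAChR-/- cells. Mefv went from 1.01 to 3.99 FPKM in WT and from 13.9 to 4.42 FPKM in α7nAChR-/- cells, a difference of -2.77 between the log2 changes (α7nAChR-/- minus WT), and Cdc42ep2 from 1.32 to 4.15 FPKM and from 12.3 to 3.85 FPKM, a difference of -2.60. For both genes the vehicle libraries were further apart than the libraries with both agents. Of the 4 libraries, only the α7nAChR-/- vehicle library reached 5 FPKM for either gene. The fall in that genotype was therefore fixed by the filter and rests on that 1 library. With 1 library per group these differences were not tested.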

How the results depend on the processing

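The number of genes called with nicotine plus LPS against vehicle, 5713, stayed between 5651 and 7452 under other pseudocounts, filters and scalings, with 5244 to 5684 of the 5713 genes shared for the filters and pseudocounts, 4834 for quantile scaling and 5194 for median centring. It was 4317 to 4686 without 1 of the 4 libraries, 5816 from the 4 libraries alone with a genotype term and 4559 without that term. The share of calls that were higher was 57.34%, against 46.69% with quantile scaling and 48.01% with median centring. The number of genes at least 2-fold changed in both genotypes, 2685, was 1623 with a pseudocount of 5, which shrinks the change of low genes by construction. The number of departures from the sum of the single treatments, 2605, was 834 to 1649 without 1 library. Of the named genes, 3 turned lower under quantile scaling, with log2 changes of -0.359 for Atp5a1, -0.295 for Rpl11 and -0.355 for Rpl3. For these 3 genes the cause was not tested. Without the genotype term the adjusted p was 0.1 for Gata6, 0.18 for Il1b, 0.087 for Irg1 and 0.0576 for Socs1. Of 147 named genes, 129 kept direction and side of the threshold under quantile scaling and 130 to 134 without 1 library. The trend on expression, left out for departures, and the libraries left out for single genes were chosen after seeing the data. The labels give no replicate numbers, and genotype, a term of the fit, pairs each treated library with its vehicle library. With no counts and 1 library per group, small changes and low genes are the least certain, and differences between genotypes have no test.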
